A study of Mus musculus with 6 samples.

Results

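Cytosolic ribosomal protein genes encode the proteins of the cytoplasmic ribosome, and their mRNA levels were compared between smoke-exposed lungs of wild-type mice and of mice overexpressing FTO. Members were the rows of the gene table whose symbol is Rpl or Rps followed by a number and any of the letters a, l and x, together with Rpsa, Rplp0, Rplp1 and Rplp2. 84 of the 57180 rows met this rule, 32 for the small (40S) and 52 for the large (60S) subunit. The gene annotation GENCODE M21 held all 84, of which 81 are annotated as protein coding and 3 (Rps4l, Rpl6l and Rpl32l) as processed pseudogenes. The rule leaves out core ribosomal genes that have other symbols, of which Rps3a1, Rack1 and Fau are described beside the members.

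Each ribosome carries 1 copy of nearly all of these proteins, made in the cytoplasm, imported into the nucleolus and assembled there with ribosomal RNA. The mRNAs are among the most abundant of most cells, encode short proteins, and typically begin with a pyrimidine tract (the 5′ terminal oligopyrimidine or TOP motif) through which mTORC1 and the RNA-binding protein LARP1 set their translation together. Many of these genes have also left processed pseudogenes across the genome, some almost identical in sequence to the parent mRNA.

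Polyadenylated lung RNA was sequenced in 6 libraries, 3 from wild-type mice (WT) and 3 from mice labelled as overexpressing FTO, the demethylase of N6-methyladenosine in RNA. All 6 came from animals exposed to cigarette smoke. The sources used here give neither the driver of the FTO overexpression nor the strain, sex, age or length of exposure, and nothing states that each library is 1 animal, so p-values measure the spread between these libraries. Estimated counts summed to between 16731850 and 21444907 per library. Levels below are CPM (counts scaled to a common library size) after scaling by the trimmed mean of M-values (TMM), unless a share of counts is named. Fto (ENSMUSG00000055932) itself read 66.2, 69.9 and 68.6 CPM in wild-type replicates 1, 2 and 3 and 666.1, 650.1 and 740.8 CPM in the overexpressing replicates, a ratio of 10.05 (95% interval 8.66 to 11.7). Fto matched the label of every library, and all 11 lung epithelium markers were detected, with summed levels of 36410 to 51387 CPM.

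The sequence around the start of transcription is where the TOP motif of these mRNAs lies, so windows of 30 bases centred on the RefSeq start (GRCm38.p6) were read for 10 members that the results below name or that hold long tracts. A RefSeq start can differ from the start used in lung, and the genome build of the deposited counts is not known here. Capitals mark the longest run of at least 8 pyrimidines (C or T), and windows without capitals hold no such run.
Rps6 (chr4:86857353-86857382, minus strand): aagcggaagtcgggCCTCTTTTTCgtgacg
Rps10 (chr17:27635230-27635259, minus strand): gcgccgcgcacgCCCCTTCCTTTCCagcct
Rps27 (chr3:90213634-90213663, minus strand): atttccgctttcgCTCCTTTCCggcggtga
Rps27l (chr9:66946071-66946100, plus strand): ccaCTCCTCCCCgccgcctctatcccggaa
Rpl13a (chr7:45128731-45128760, minus strand): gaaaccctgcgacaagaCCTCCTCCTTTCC
Rpl15 (chr14:18270972-18271001, minus strand): gtgggagaaagCCTTCTTCCTTTCCTCTgg
Rpl28 (chr7:4792950-4792979, plus strand): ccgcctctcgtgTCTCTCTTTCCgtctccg
Rpl5 (chr5:107900513-107900542, plus strand): tctcacgtcgcttgcgtgctggtggtgcta
Rplp0 (chr5:115559452-115559481, plus strand): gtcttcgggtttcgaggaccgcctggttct
Rpsa (chr9:120127751-120127780, plus strand): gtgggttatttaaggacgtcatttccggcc
The longest run was 17 bases in Rpl15 and 13 in Rps10 and Rpl13a. Of these windows, 7 hold a run and 3 (Rpl5, Rplp0 and Rpsa) do not. The Rps27l run lies wholly before the RefSeq start, so it is not part of an mRNA that begins there. Rps27l has 2 windows, and the one with the longer run is shown.

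RefSeq promoter windows were matched for 61 of the 81 protein-coding members. A gene with several windows counted as a match if any of them matched. A pyrimidine run of at least 8 bases lay in the 30-base window of 26 of them (42.6%), against 14.5% of 15539 other protein-coding genes. In the full windows, 250 bases before to 50 after the start and searched on both strands, the ETS-type motif CCGGAAGT was found in 19.7% of the members and 6.22% of other genes. The palindrome CTCGCGAG was found in 11.5% and 1.53%. The YY1-type motif AAGATGGC was found in 8.20% and 3.73%, the GC box GGGCGG in 60.7% and 54.0%, and the TATA box TATAAA in 9.84% and 13.0%. These are matches of letters, with no measure of binding.

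After a filter on low counts, 79 members could be tested, all 32 of the small and 47 of the large subunit. Together the members took 2.66%, 2.25% and 2.17% of the counts of wild-type replicates 1, 2 and 3 and 2.71%, 2.23% and 2.82% of those of the overexpressing replicates. Because read counts grow with transcript length, levels of different genes were compared per kilobase of the longest annotated coding sequence, which ran from 138 to 1257 bases. On that scale the median over the 78 tested members with a coding length was 605 CPM per coding kb, with quartiles of 406 and 808. Rpl41, which encodes the shortest ribosomal protein, stood highest at 3238 CPM per coding kb. Reads from untranslated ends count toward the level but not toward the coding length, so this scale can favour short coding sequences. Before the division Rpl41 had a mean of 447 CPM, below the 730 CPM of Rpl4. Rps24, a gene affected in Diamond-Blackfan anaemia, had 1561, Rpl23a, whose protein lies near the exit of the peptide tunnel, 1378, and Rps14 1337 CPM per coding kb. Rpl5 had 31.2 CPM per coding kb against 643 for Rpl11, but 82.1% of the reads of the Rpl5 sequence were counted on pseudogene copies, and with those added it had 173 against 644 CPM per coding kb. Rpl5 and Rpl11 bind 5S ribosomal RNA as a unit before joining the large subunit. Rpl12, named after its values were seen, was lower still at 23.0 CPM per coding kb. Copies held 1.47% of its reads, and with those added it had 23.4 CPM per coding kb. The search for copies covered only GENCODE M21, which held 90.7% of the gene identifiers, so reads counted at other loci were not looked for.

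Ribosomal protein mRNAs were high or low together from library to library, in an order that crossed the genotypes. Their summed level was 27288, 22913 and 21575 CPM in wild-type replicates 1, 2 and 3 and 28004, 21222 and 27859 CPM in overexpressing replicates 1, 2 and 3. Overexpressing replicates 1 and 3 and wild-type replicate 1 were high, and wild-type replicates 2 and 3 and overexpressing replicate 2 were low, so the groups overlapped. Within 1 genotype the highest library exceeded the lowest by 1.26-fold (wild type) and 1.32-fold (overexpressing), more than the 1.07-fold ratio of the group means, 25695 ± 3874 against 23925 ± 2988 CPM (SD, n = 3 each). In whole-lung RNA, a different number of cells rich in these mRNAs and a different amount of RNA per cell cannot be told apart.

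The order of the libraries was nearly the same for every member. Wild-type replicate 1 was the highest wild-type library for 77 of 79 members and wild-type replicate 3 the lowest for 77, where across all 16989 genes tested these shares were 37.1% and 33.4%. Overexpressing replicate 2 was the lowest of its group for all 79, against 36.8% of all genes. Replicate 1 was the highest of that group for 51 members and replicate 3 for 28. On the log2 scale, the median member lay 0.16, -0.10 and -0.19 from its mean over the 6 libraries in the wild-type replicates and 0.19, -0.22 and 0.17 in the overexpressing ones. The median within-group SD of a member was 0.21 on the log2 scale, against 0.11 for 4468 other genes with a mean of at least 50 CPM. The heat map of members by library shows the same sign in nearly all rows of a column.

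**Figure D1:**
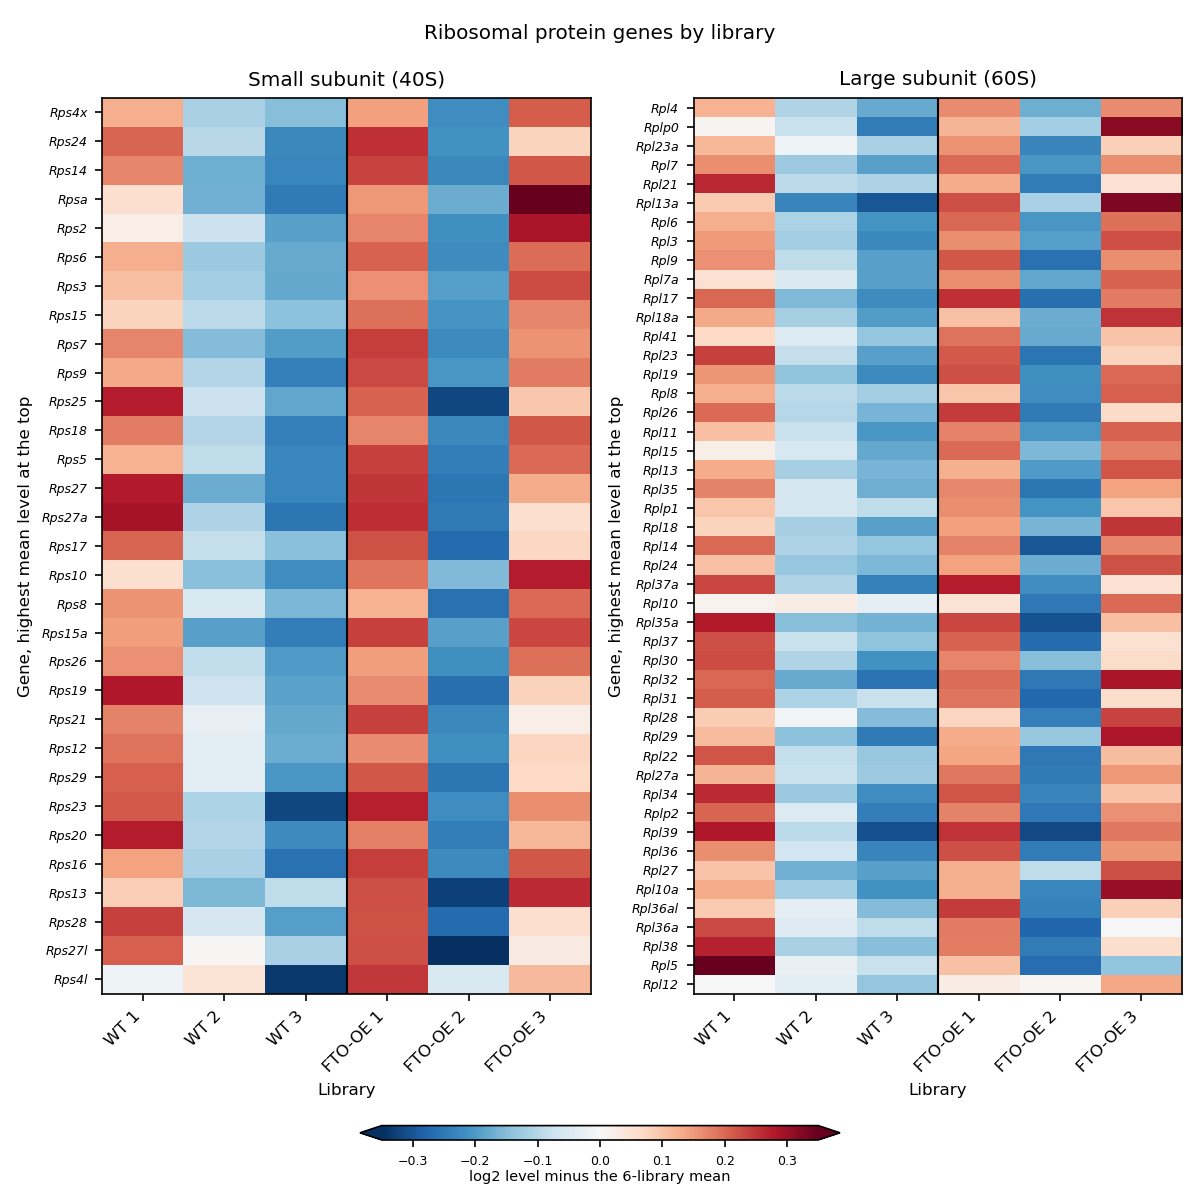
Level of 78 of the 79 members tested (rows, split by subunit, highest mean level at the top) in the 6 libraries (columns), as log2 CPM minus the gene's mean over the libraries; the colour scale stops at 0.35 either way and the black line separates the genotypes. Counted over all members tested, 78, 3 and 0 lay above their mean in wild-type replicates 1, 2 and 3, and 79, 1 and 78 in overexpressing replicates 1, 2 and 3.

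Both subunits showed this order of libraries. Small-subunit members summed to 11297, 9393 and 8814 CPM in the wild-type libraries and 11672, 8714 and 11565 CPM in the overexpressing ones. Large-subunit members summed to 15991, 13519 and 12761 CPM and to 16331, 12508 and 16294 CPM. The ratio of large to small sums stayed between 1.40 and 1.45 in the 6 libraries. Over these libraries the log2 level of a member correlated with that of the summed level with a median Pearson r of 0.96, and r was above 0.9 for 71 of 79 members and for 3.33% of 11255 other genes. This describes 6 libraries, and each member is itself part of the sum. The lowest r among members were 0.58 for Rpl5, 0.68 for Rpl12, 0.72 for Rps4l and 0.74 for Rpl10 (Rpl12 was named after its values were seen). Outside the members and their pseudogene copies, the genes most like the sum were the translation initiation factor genes Eif2a (r = 0.998) and Eif3e (r = 0.996) and the cap methyltransferase gene Rnmt (r = 0.994).

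No ribosomal protein gene passed the test of genotype. Of 79 members tested, 0 passed an adjusted p of 0.05 (edgeR's quasi-likelihood test, Benjamini-Hochberg over 16989 genes), where 16 genes or 0.0942% of all passed. At an unadjusted p under 0.05 there were also 0 members, against 9.44% of all genes, and limma-voom and DESeq2 called 0 members at an adjusted p of 0.05. The overexpressing libraries all lay above the wild-type ones for 1 member, against 7.96% of all genes, and all below for 0, against 6.9%. For the other 78 the groups overlapped. The 1 member was Rpl12, a stalk-base protein gene named after its values were seen, at 11.4, 11.1 and 10.3 against 11.6, 11.4 and 12.5 CPM (unadjusted p = 0.360). Every 95% interval lay inside 2-fold, with bounds from 0.671 for Rpl5 to 1.56 for Rpl13a, as the plot of fold changes shows.

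**Figure D2:**
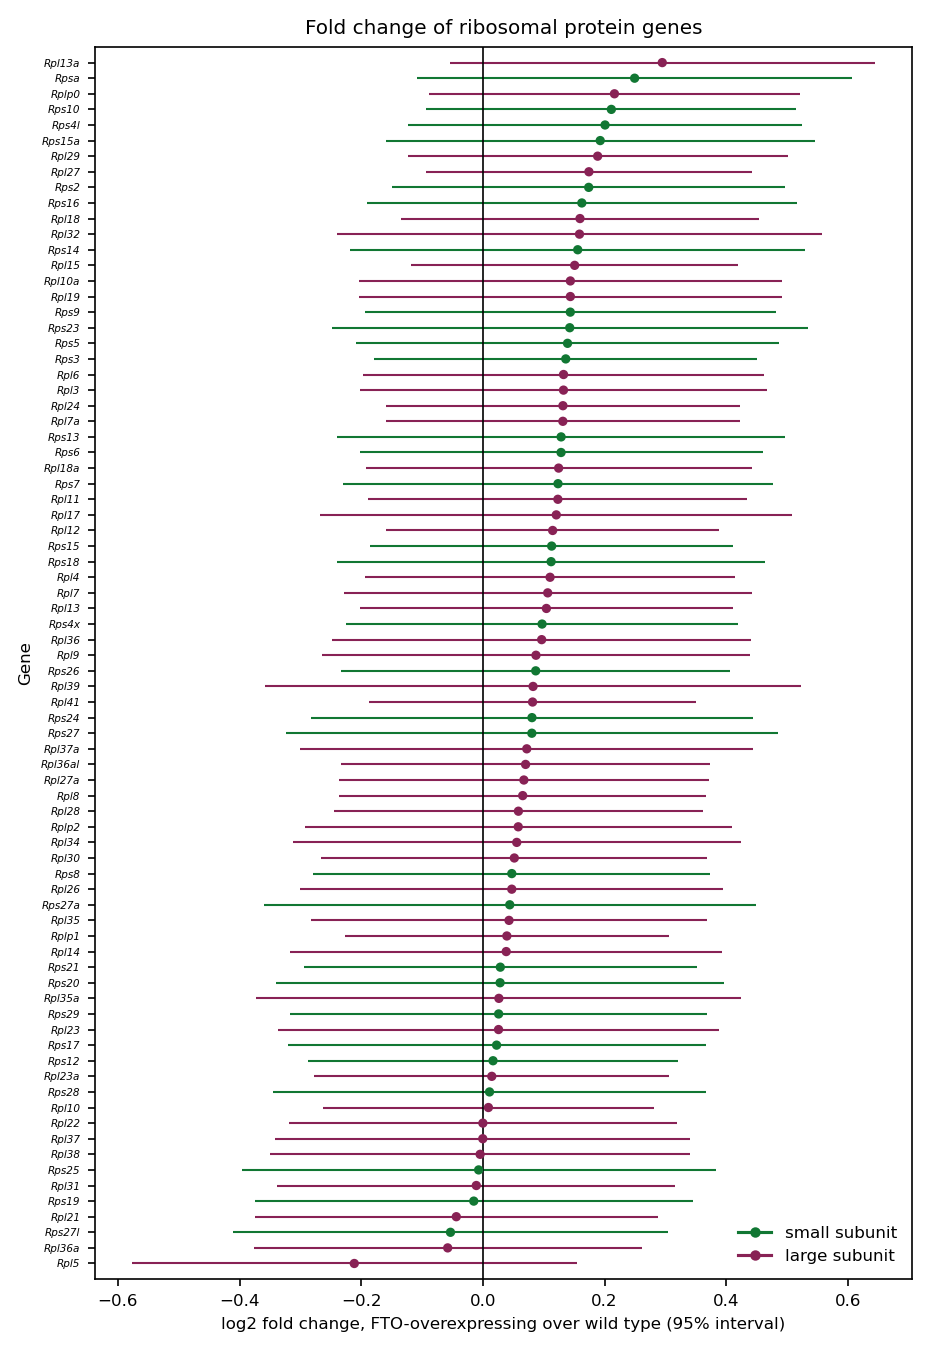
Fitted log2 fold change of 78 of the 79 members tested (points; overexpressing over wild type) with 95% intervals from edgeR (lines), sorted by size and coloured by subunit. All intervals cross 0, and the points run from -0.21 (Rpl5) to 0.29 (Rpl13a).

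Most estimates were slightly above 0. The median log2 fold change was 0.087 (a ratio of 1.06), against 0.0069 for all genes tested, and 69 members had a value above 0 and 10 below. That is 87.3% above 0, against 51.5% of all genes tested and 43.8% of other genes with a mean of at least 50 CPM. The median was 0.11 for small-subunit and 0.082 for large-subunit members. Since members move together between libraries, these are not 79 separate measurements, and the median rested on single libraries. It was 0.21 when either wild-type replicate 1 or overexpressing replicate 2 was left out, and 0.021, 0.033 and 0.033 without wild-type replicate 3, overexpressing replicate 1 and overexpressing replicate 3. The number of members above 0 ran from 46 to 79 in these fits. Members with an unadjusted p under 0.05 numbered 11, 2 and 1 with overexpressing replicate 2, wild-type replicate 1 or overexpressing replicate 1 left out, and none was called. The shares of all genes at such a p in those fits were 9.61%, 12.4% and 9.02%. There were 0 such members when the library left out was replicate 2 or 3 of the wild type or replicate 3 of the overexpressing group, against 6.52%, 7% and 6.7% of all genes.

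Among small-subunit genes, Rpsa (ENSMUSG00000032518) had the largest estimate. It encodes the 40S protein also known as the laminin receptor precursor, and read 613, 525 and 497 CPM in the wild-type libraries and 655, 522 and 766 CPM in the overexpressing ones. Overexpressing replicate 3 was the highest of all 6, and replicate 2 lay inside the wild-type range. Its log2 fold change was 0.25 ± 0.15 (SE), with an adjusted p of 0.697. Rps10, which encodes a protein of the 40S head, read 288, 251 and 238 CPM and 316, 249 and 335 CPM, a log2 fold change of 0.21 ± 0.13 (SE). Here too overexpressing replicate 2 fell among the wild-type values. Rps6, the substrate of the S6 kinases downstream of mTORC1, read 547, 458 and 443 CPM and 578, 430 and 574 CPM, with a log2 fold change of 0.13. Rps19, the gene most often mutated in Diamond-Blackfan anaemia, read 287, 225 and 208 CPM and 266, 197 and 250 CPM. Its highest library was wild-type and its lowest overexpressing, and its log2 fold change of -0.015 changed sign with scaling by total counts, where it was 0.015. Rps14 ran from 512 to 675 CPM in wild-type and from 513 to 706 CPM in overexpressing libraries, almost the same range.

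Among large-subunit genes, Rpl13a (ENSMUSG00000074129) had the smallest p of all members. Its protein can also leave the ribosome and join a complex that represses translation of inflammatory mRNAs. It read 569, 456 and 435 CPM in the wild-type libraries and 626, 494 and 671 CPM in the overexpressing ones. Wild-type replicate 1 exceeded overexpressing replicate 2, so the groups overlapped. Its ratio was 1.23 (95% interval 0.963 to 1.56). The edgeR fit gave an unadjusted p of 0.0871 and an adjusted p of 0.620. Rpl27 read 111, 92.2 and 90.8 CPM and 113, 97.4 and 121 CPM, a log2 fold change of 0.17 with an adjusted p of 0.728. Rpl11, a 5S particle protein that binds Mdm2 when ribosome assembly is disturbed, read 367, 323 and 296 CPM and 384, 296 and 394 CPM. Its partner Rpl5 (ENSMUSG00000058558) had the lowest estimate of all, with 36.5, 26.9 and 26.02 CPM against 29.5, 22.8 and 24.9 CPM and a log2 fold change of -0.21 ± 0.16 (SE). Most reads of the Rpl5 sequence were counted elsewhere, as described with the pseudogene copies. The member with the most reads, Rpl4, which lines the peptide tunnel, averaged 701.9 ± 77.6 CPM without and 757.6 ± 97.4 CPM with FTO overexpression (SD, n = 3 each), and Rpl23a had 641.7 ± 52.0 and 648.2 ± 89.2 CPM.

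The stalk of the large subunit, which recruits the elongation factors, is built of Rplp0, Rplp1 and Rplp2. Rplp0 read 651, 613 and 546 CPM against 703, 596 and 805 CPM, with a log2 fold change of 0.22 ± 0.13 (SE). Rplp1 read 292, 261 and 256 CPM against 305, 236 and 291 CPM, and Rplp2 read 149.8, 126.0 and 110.1 CPM against 146.8, 109.4 and 145.4 CPM. Their log2 fold changes were 0.039 and 0.058. Overexpressing replicate 3 was the highest library for Rplp0 alone of these, and all 3 genes overlapped between the groups.

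The paralogs with tissue-restricted roles, Rpl10l, Rpl39l and Rpl3l, and the annotated pseudogenes Rpl32l and Rpl6l were near or at 0. Rpl10l, the testis retrogene that replaces the X-linked Rpl10 during meiosis, and Rpl32l had 0 counts in all libraries, where a count of 0 allows up to 0.140 to 0.179 CPM (3 counts, counting error only). Rpl6l had about 1 count, in overexpressing replicate 3. Rpl39l, another testis-enriched paralog, had 0, 0 and 2 counts in wild-type and 5, 3 and 2 in overexpressing libraries, while Rpl39 ran from 101.2 to 151.9 CPM. Rpl3l, which replaces Rpl3 in striated muscle, had 8, 1 and 5 counts against 3, 13 and 27, while Rpl3 ran from 441 to 602 CPM. Summed striated muscle markers stood at 171, 89.9 and 697 CPM in the wild-type and 232, 1506 and 390 CPM in the overexpressing libraries, highest in overexpressing replicate 2. The part of muscle in the Rpl3l counts was not tested.

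The remaining pairs were both expressed. Rps27 read 343, 251 and 242 CPM against 337, 237 and 309.8 CPM, and Rps27l, a p53 target, read 60.7, 52.6 and 48.6 CPM against 61.4, 41.0 and 53.6 CPM. Rpl36a and Rpl36al had means of 87.7 and 87.8 CPM over the 6 libraries, with log2 fold changes of -0.058 and 0.070. Near-identical copies held 44.1% of the reads of Rpl36a and 1.56% of those of Rpl36al, and with copies added the means were 156.9 and 89.2 CPM. Rps4x, on the X chromosome, ran from 540.3 to 727 CPM, and Rps4l from 13.5 to 20.3 CPM with a log2 fold change of 0.20 (adjusted p = 0.745). Rps4l is annotated as a transcribed processed pseudogene. Each of these 6 genes overlapped between the groups.

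Several members share their reads with near-identical pseudogene copies. Transcripts of pseudogenes, predicted genes and genes with a pseudogene symbol were aligned to the members' whole transcripts, untranslated ends included. Of these, 538 matched with at least 95% identity, for 71 members. The aligned length had to reach at least 80% of the member's coding length, and bases in untranslated ends counted toward it. 30 of these copies had at least 300 reads over the 6 libraries, and 18 of the 30 were 100% identical over the aligned bases. Copies held more than 10% of the reads of gene plus copies for 15 members and more than 50% for 5 of them. The Rpl5 copies held 82.1% of its reads, nearly all on Gm15500, and the Rpl10 copies 64.0%, mostly on Rpl10-ps3. The share was 58.8% for Rps23, 58.0% for Rpl27a and 56.2% for Rpl27. Rpl27-ps3 and Gm11518, both 100% identical to the Rpl27 sequence, had equal values in every library, for example 68.3 CPM each in wild-type replicate 1 and 81.2 CPM each in overexpressing replicate 3. Genes of these copies were named after their values were seen. No source used here says how the counting program divided reads between identical loci.

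**Figure D3:**
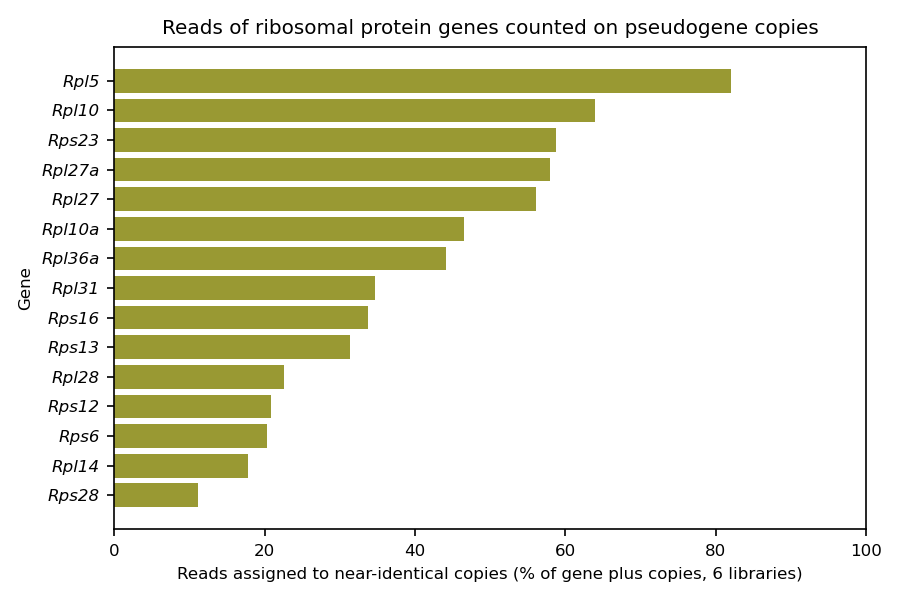
Share of reads assigned to near-identical copies, in % of the reads of gene plus copies summed over the 6 libraries, for the 15 members above 10%. Rpl5 (82.1%) and Rpl10 (64.0%) stand highest, and 5 members exceed 50%.

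Adding the copies to their members, an alternative chosen after seeing the data, raised the likeness to the summed level for Rpl5 and Rpl10 but not for Rpl12 and Rps4l. The sum here was that of members with copies added, so r before and after refers to different sums. Rpl5 with its copies read 180.4, 129.6 and 143.3 CPM in wild-type and 170.7, 134.2 and 166.2 CPM in overexpressing libraries. Its log2 fold change turned from -0.21 to 0.056. Its r rose from 0.58 with the sum of members alone to 0.90 with the sum that held the copies. Rpl10 with its copies read 780.0, 659.5 and 650.3 CPM and 763, 596 and 762 CPM, and its r rose from 0.74 to 0.97. For Rpl12 r went from 0.68 to 0.64 and for Rps4l it stayed at 0.72, and 70 members had an r above 0.9, against 71 without the copies. The median log2 fold change over members was 0.090 with copies added, 72 of 79 were above 0, and 0 were called. The summed level of the copies themselves, 2265, 1873 and 1755 CPM against 2296, 1720 and 2156 CPM, had the same 3 libraries high as the members.

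With the movement shared by all members divided out, small differences in composition were seen, in a comparison chosen after seeing the data. Each member was expressed as a share of the summed member counts of its library. The overexpressing libraries then all lay above the wild-type ones for 7 members (8.86%), where the same scaling put 3.69% of all genes tested above, and all below for 10 (12.7%), against 4.1% of all genes. Dividing by the member total removes variation that members share and other genes do not, so these percentages are not like for like. In the edgeR fit with the member total as library size, 0 of 79 members passed an adjusted p of 0.05, against 0.23% of all genes, and 0 an unadjusted p under 0.05, against 5.06%. The smallest p was 0.108, for Rpl5. This fit draws each gene's spread toward that of other genes, so it can miss small, steady differences in share. For Rpl6, named after its values were seen, shares were 2.15%, 2.16% and 2.15% in wild-type and 2.20%, 2.19% and 2.20% in overexpressing libraries. The SE of its log2 fold change was still 0.13, so the absence of calls does not decide whether shares differed.

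Rpl13a held 2.09%, 1.99% and 2.01% of the member counts in the wild-type libraries and 2.23%, 2.33% and 2.41% in the overexpressing ones, a ratio of 1.14 (1.12 to 1.17 when any 1 library was left out). Rpsa held 2.25%, 2.29% and 2.30% against 2.34%, 2.46% and 2.75%, and Rps10 1.06%, 1.09% and 1.10% against 1.13%, 1.17% and 1.203%. For each of these 3 the lowest overexpressing share exceeded the highest wild-type share. Others higher in all overexpressing libraries included Rpl6, Rps9 and Rps15a, with ratios of 1.02 to 1.06. Lower shares were seen for Rpl5 (ratio 0.813), Rps27l (0.893), Rpl36a (0.895), Rpl21 (0.907), Rps19 (0.925), Rpl37, Rpl22, Rps12, Rpl14 and Rpl35 (0.932 to 0.959). Members outside the naming rule were chosen here after their values were seen. With copies added, 16 of these 17 members kept their separation, and the exception was Rpl5, with 0.610%, 0.523% and 0.614% against 0.563%, 0.585% and 0.554%. Of the 17, only Rpl5, Rpl36a (44.1%), Rps12 (20.8%) and Rpl14 (17.8%) had more than 10% of their reads on copies. For the rest, adding copies could change the share little, so their kept separation was nearly fixed in advance. Rpl10 (lower) and Rpl10a (higher) separated only with copies added.

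**Figure D4:**
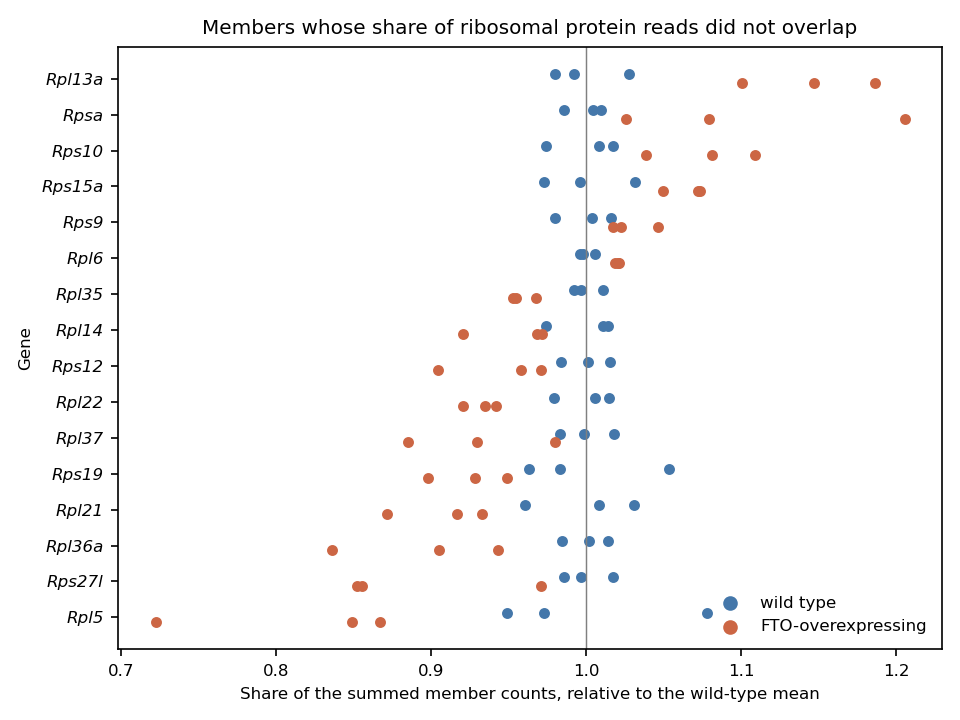
16 of the 17 members whose share of the summed member counts did not overlap between the genotypes; each point is 1 library (blue wild type, orange overexpressing), divided by the wild-type mean of that gene. Rpl13a lies highest (ratio of means 1.14) and Rpl5 lowest (0.813).

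The core ribosomal genes outside the rule had the same libraries high and low as the members. Rps3a1 read 763, 648 and 600.3 CPM in wild-type and 805, 582 and 759 CPM in overexpressing libraries. Rack1, the 40S signalling scaffold, read 421, 363 and 343 CPM and 439, 348 and 473 CPM, and Fau, which encodes a ubiquitin-like protein fused to Rps30, read 185, 144 and 135 CPM and 185, 138 and 179 CPM. The same 3 libraries were high for these genes. None of the 3 passed the test, and their log2 fold changes were 0.094, 0.16 and 0.11.

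Other genes of translation shared the order of libraries to different degrees, as the plot of summed levels by gene set shows. The 7 elongation factor genes summed to 7243, 6455 and 6366 CPM in wild-type and 7809, 6171 and 7890 CPM in overexpressing libraries. The highest 3 libraries were those in which ribosomal protein mRNAs were high. The 21 other TOP mRNAs summed to 4672, 4376 and 4220 CPM against 5040, 4146 and 4947 CPM, again with that order of high and low. The 20 initiation factors, at 4020, 4167 and 4141 CPM against 4207, 3792 and 3997 CPM, did not follow it. The 43 ribosome assembly factors (1562, 1627 and 1552 CPM against 1761, 1537 and 1682 CPM) and the 14 genes of the RNA polymerase I machinery (399, 408 and 404 CPM against 429, 403 and 439 CPM) did not put wild-type replicate 1 among the high libraries.

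**Figure D5:**
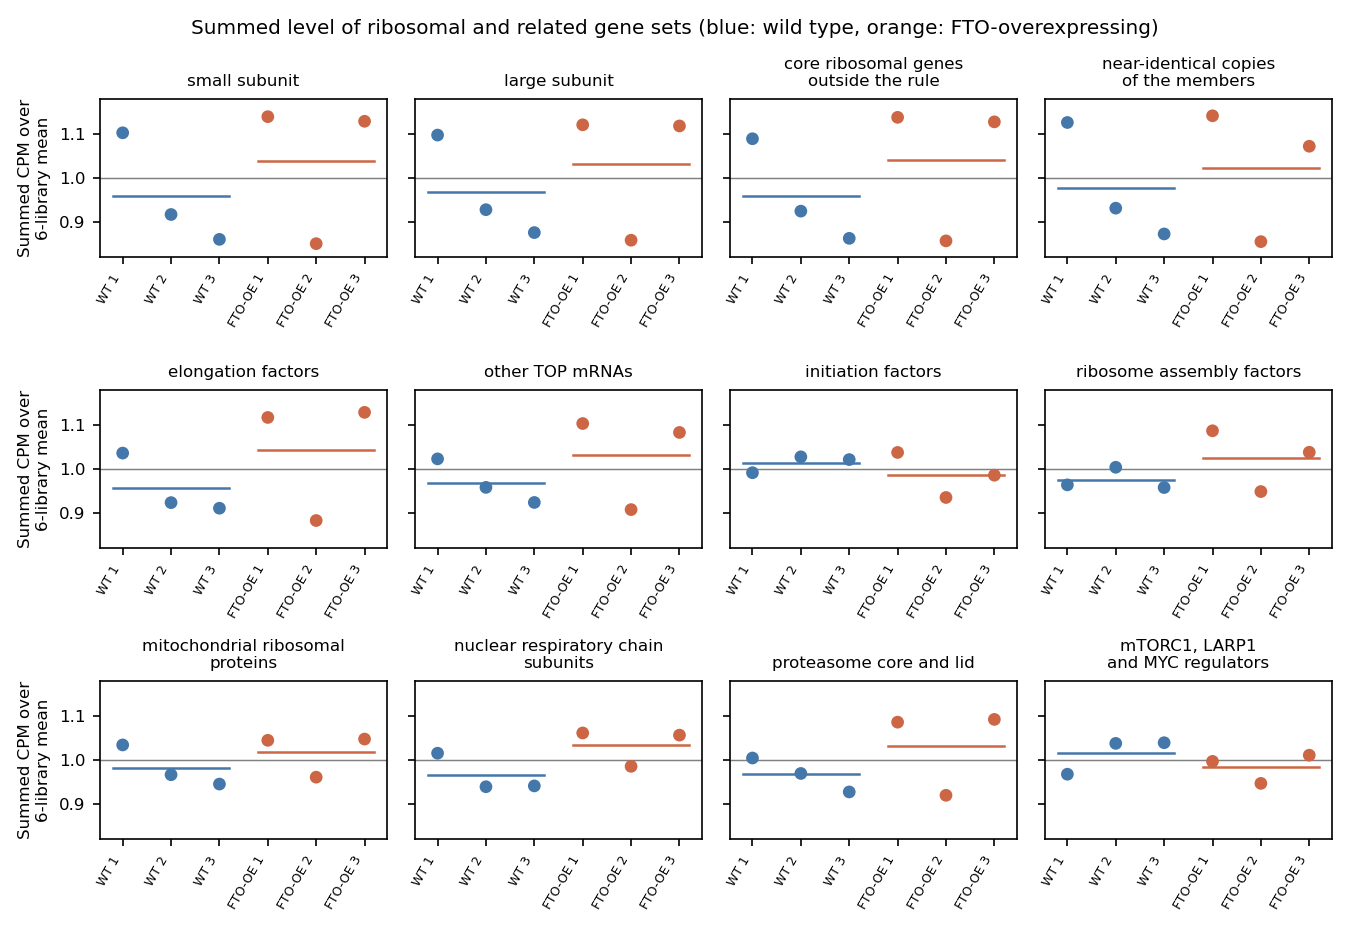
Summed CPM of 12 gene sets in each library, divided by the mean of the set over the 6 libraries (blue wild type, orange overexpressing, horizontal bars are group means). Wild-type replicate 1 and overexpressing replicates 1 and 3 are high in both subunits, the core genes outside the rule, the pseudogene copies, the elongation factors and the other TOP mRNAs, while initiation factors and mTORC1, LARP1 and MYC regulators show another order.

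In the comparison of genotypes these sets held no gene past an adjusted p of 0.05 in the edgeR fit. At an unadjusted p under 0.05, 0 of 7 elongation factors, 3 of 21 other TOP mRNAs (all higher), 1 of 20 initiation factors (lower), 3 of 43 assembly factors (higher), 0 of 14 polymerase I genes and 2 of 19 mTORC1, LARP1 and MYC regulators (lower) were found, where 9.44% of all genes had such a p. The median log2 fold changes were 0.12, 0.12, 0.019, 0.075, 0.077 and -0.019 in that order. Hnrnpa1, a TOP mRNA for a splicing factor, read 285, 274 and 238 CPM against 346, 316 and 317 CPM, with no overlap (adjusted p = 0.348). Eif1, an initiation factor gene that selects the start codon, read 479, 470 and 469 CPM against 439, 363 and 416 CPM, also with no overlap (adjusted p = 0.528). Deptor, an inhibitor of mTOR, read 88.3, 87.3 and 81.4 CPM against 77.2, 66.6 and 74.1 CPM (adjusted p = 0.410). None of the 8 snoRNA host genes and 12 p53 targets tested had an unadjusted p under 0.05.

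Mitochondrial ribosomal protein genes, which are separate nuclear genes, followed the cytosolic ones at a smaller amplitude. The 78 genes summed to 1660, 1551 and 1517 CPM in wild-type and 1677, 1542 and 1681 CPM in overexpressing libraries, and 58 had a log2 fold change above 0 with a median of 0.050. Nuclear respiratory chain subunits summed to 5087, 4705 and 4714 CPM against 5317, 4937 and 5293 CPM (63 of 73 above 0, median 0.082), and proteasome subunits to 2932, 2829 and 2706 CPM against 3169, 2684 and 3188 CPM (31 of 38 above 0, median 0.077). Over all genes tested, 51.5% had a log2 fold change above 0. In the edgeR fit 0 genes of these 3 sets passed an adjusted p of 0.05, against 0.0942% of all genes.

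Coding length moved with the library pattern. Among other genes with a mean of at least 50 CPM, the 75 that encode up to 100 residues had median deviations of 0.071, -0.034 and -0.049 (log2) in wild-type replicates 1, 2 and 3 and 0.12, -0.13 and 0.0093 in the overexpressing ones. The 441 encoding over 100 and up to 200 residues, the class of 46 members, had 0.060, 0.0025 and -0.050 and then 0.093, -0.13 and 0.022. The 2786 genes encoding over 400 residues had -0.048, 0.041 and 0.046 and then -0.0030, -0.033 and -0.0055. The shortest class shared the sign of the ribosomal protein genes in the 6 libraries at a smaller size, and the next class did so in all but wild-type replicate 2. The part of length in the members' pattern was not tested. In the comparison of genotypes the 4 length classes of other genes had medians between -0.027 and -0.0077.

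Of the cell type marker sets, B cell markers had the same 3 libraries high as the ribosomal protein genes, and the others did not. The 6 B cell markers summed to 132.0, 87.4 and 50.5 CPM in wild-type replicates 1, 2 and 3 and 92.3, 86.3 and 93.9 CPM in the overexpressing ones, with 0 called and 0 at an unadjusted p under 0.05. Wild-type replicate 2 and overexpressing replicate 2 lay close below overexpressing replicates 1 and 3. Summed T cell markers stood at 124, 107 and 91.7 CPM against 284, 385 and 598 CPM, with 3 of 10 called higher and all 10 at an unadjusted p under 0.05. The 10 cell cycle genes were all higher at an unadjusted p under 0.05 with 0 called, and summed to 106, 153 and 89.7 CPM against 213, 341 and 392 CPM. Overexpressing replicate 2, the lowest library for ribosomal proteins, had more of both than any wild-type library. Erythroid markers summed to 23418, 15830 and 8588 CPM against 34064, 17444 and 3681 CPM, and transcripts of the mitochondrial genome to 53627, 36066 and 34941 CPM against 41388, 34496 and 33981 CPM. Of the 11 lung epithelium markers 0 were above 0 in log2 fold change and 5 had an unadjusted p under 0.05. Over all genes tested in the edgeR fit, 51.5% were above 0, 9.44% had an unadjusted p under 0.05 and 0.0942% were called. The 7 testis markers were at 0.325 to 0.998 CPM in sum. The part of cell composition in the ribosomal protein levels was not tested.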

How the data were processed

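The authors deposited 1 table of expected counts (estimated read counts per gene, not scaled to depth); 9.66% to 10.3% of the rows per library were not whole. Per the submitters' processing notes, fastp, HISAT2 and StringTie were used, without versions. Per the labels' protocols, RNA was TRIzol-extracted and libraries were stranded and poly(A)-selected. The program that made the counts, its build and whether it used strand are not stated there. Rows with a gene identifier but no symbol (0.119% to 0.143% of counts) stayed in library sizes and in the test across all genes.

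Values were rounded and tested in R 4.3.3 with edgeR 4.0.16 (filterByExpr by group, TMM, quasi-likelihood F-test, group only, Benjamini-Hochberg, threshold 0.05); intervals cover 95%. Alternatives used limma 3.58.1, DESeq2 1.42.0, other scalings and filters, a replicate block and single libraries left out. Copies were found with blastn 2.17.0+ against GENCODE M21. The test was checked on simulated counts. Values of a few single genes are not reported here, though sums and counts include them. Libraries of 1 group differed beyond counting noise, so none was a re-sequencing of another. That comparison cannot show whether any of them came from the same animal. The members, lists and tests were chosen with earlier results of these data known. Genes named were those with the smallest p (6), the highest and lowest fold change (3 each), the most reads or reads per coding kb (4 each), paralog pairs, stalk genes, Rpsa, Rps6, Rpl5, Rpl11, Rps19, Rpl13a, the core genes outside the rule, Fto, up to 2 per list and the 3 genes most like the member sum.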

Additional observations from a re-analysis of the deposited data

How the results depend on the processing

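No ribosomal protein gene was called under any alternative run, and the median log2 fold change of the members stayed above 0 except relative to the member total, an added alternative whose construction centres it (-0.015). Scaling by total counts gave a median of 0.12 with 75 members above 0. Genes called over the whole table numbered 287 with no filter, 2 with the replicate block, 31 without haemoglobin, immunoglobulin and mitochondrial genes, 5 with limma-voom and 423 with DESeq2, against 16, and 1 to 49 with 1 library left out; the cause was not tested. Same-numbered libraries had correlations of 0.11, -0.31 and -0.31, and differently numbered ones ran from -0.20 to 0.43. These used deviations centred within each group, which ties the values to one another, so they cannot settle whether the replicate numbers pair the libraries. With the block 0 members were called and the median was 0.083. The ratio of the members' share of counts, 1.10, ran from 1.05 to 1.17 with 1 library left out.

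Signs near 0 turned. Rps19 was 0.015 with total counts, and Rpl10 was -0.0025 with the replicate block and -0.0047 with limma-voom. Relative to the member total the values were -0.091 for Rpl23a, -0.0078 for Rps4x, -0.023 for Rpl41, -0.018 for Rps24, -0.11 for Rpl10, -0.019 for Rpl39, -0.017 for Rps27, -0.038 for Rpl36al, -0.067 for Rplp1, -0.043 for Rplp2 and -0.011 for Rps3a1. Rpl5 was 0.056 with copies added. With 1 library left out the values ran from -0.17 to 0.056 for Rpl36a, -0.19 to 0.092 for Rps27l, -0.11 to 0.14 for Rps19, -0.063 to 0.12 for Rpl23a, -0.032 to 0.22 for Rps24, -0.097 to 0.12 for Rpl10, -0.042 to 0.27 for Rpl39, -0.026 to 0.26 for Rps27, -0.042 to 0.19 for Rplp2, -0.041 to 0.19 for Rpl36al and -0.034 to 0.14 for Rplp1.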

Other observations

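Among the 30 near-identical copies with at least 300 reads, the groups did not overlap for 2, and neither passed the test. Over all genes tested, the overexpressing libraries all lay above the wild-type ones for 7.96% and all below for 6.9%. Rpl15-ps3, 100% identical to the Rpl15 sequence over 615 aligned bases, had 15.3, 8.14 and 7.59 CPM in the wild-type libraries and 1.12, 0.227 and 0 CPM in the overexpressing ones, with no overlap and an adjusted p of 0.117 in the edgeR fit (unadjusted p = 0.000694). Gm48432, a copy of Rpl17, had 3.20, 2.26 and 1.54 CPM against 3.25, 3.92 and 3.55 CPM (adjusted p = 0.594). Another copy of the Rpl15 sequence, Gm4294, had 4.28, 1.94 and 1.93 CPM against 0.965, 0 and 6.46 CPM, and the Rpl15 copies together held 2.43% of the reads of Rpl15 and its copies. Rps12l1, 100% identical to Rps12 over 387 bases, ran from 2.17 to 15.9 CPM with overlapping groups. These copies were chosen after their values were seen, and how reads were divided among identical loci in each library was not tested.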
